A study of Mus musculus with 20 samples.

Results

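Respiratory chain genes were taken as all genes in the 4 deposited expression tables whose symbols name a subunit of complexes I to V, and 90 of the 14700 genes in the tables were such members. Of these, 77 were encoded in the nucleus and 13 in mitochondrial DNA (mt-encoded). The nuclear members comprised 36 of complex I, 4 of complex II, 8 of complex III, 13 of complex IV and 16 of complex V, and the mt-encoded members comprised 7, 0, 1, 3 and 2. All but 1 were listed in all 4 tables. The exception was Cox6b2, the testis-type form of a complex IV subunit, which was listed only where the 2 deprived groups were compared, with between 3 and 12 reads per wild-type library and between 3 and 20 per knockout library.

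The libraries were made from total RNA of mouse cortical neurons prepared at embryonic day 15 and cultured for 7 days. Wild-type (WT) cultures and cultures with a knockout (KO) of ciRS-7, a circular RNA from the locus listed as Cdr1as, were compared, and the strain label C57BL/6N-Cdr1asem1Nikr stands on the libraries of both genotypes. For the last 12 h, cultures were kept in normoxia with added glucose at 25 mM and pyruvate at 0.2 mM (N_WT and N_KO), or at 1% oxygen in medium without both additions (OGD_WT and OGD_KO; OGD stands for deprivation of oxygen and glucose, which mimics ischemia in culture). Each group had 5 libraries, labelled as biological replicates. The WT libraries came from batches 1, 3.1, 3.2 and 3.3 and the KO libraries from batches 1, 2, 3.1 and 3.3, and the N and OGD libraries of a replicate number share their batch.

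The respiratory chain moves electrons from NADH (complex I) and succinate (complex II) through ubiquinone, complex III and cytochrome c to complex IV, which reduces oxygen. Complexes I, III and IV pump protons, and complex V, the ATP synthase, uses the gradient to make ATP. Complex II is wholly nuclear-encoded, while the other complexes combine nuclear subunits with a few made inside the organelle. Mitochondrial DNA is transcribed as long RNAs from both strands, which are then cut into rRNAs, tRNAs and mRNAs, and the nuclear subunits are transcribed as separate genes and imported as proteins. Neurons depend strongly on this pathway for ATP.

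Recovered reads per library ranged from 7071603 to 16657766. Cdr1as, which checks the genotype labels, read 6.63 ± 0.13 log2 CPM in N_WT against 0.31 ± 0.48 in N_KO (SD over 5 libraries), and 6.37 ± 0.51 in OGD_WT against 0.11 ± 0.72 in OGD_KO. All 12 neuronal marker genes were listed, and none of the 10 microglial ones. On plain library totals, the summed level of the neuronal markers was 5538 to 6804 CPM in N_WT and 2912 to 5069 in OGD_WT. In N_KO it was 5842 to 6116 and in OGD_KO 2583 to 4284. The sum of 9 of 10 astrocyte markers was 1570 to 2196 CPM in N_WT, 1927 to 2715 in OGD_WT, 1497 to 2068 in N_KO and 1546 to 2514 in OGD_KO. Single markers were tested on the deposited scale (limma, adjusted p under 0.05, with 44.3% of all genes called in WT and 40.9% in KO). Of 12 neuronal markers 6 fell with OGD in WT and 7 in KO, and none rose. Of 9 astrocyte markers 5 rose and 1 fell in WT (Gfap, -0.47), and 4 rose and none fell in KO. All 8 proliferation markers rose with OGD in both genotypes. These markers moved with the treatment, and their part in the results that follow was not tested. In such bulk samples fewer cells of a type and less RNA per cell cannot be told apart.

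Sequence decides how far single mt-encoded genes can be read, so the stretches that matter are shown first (build mm10, GRCm38). mt-Atp8 and mt-Atp6, the mt-encoded subunits of the ATP synthase, overlap by 43 bases at chrM:7927-7969 on the plus strand. In the first line the capitals mark the start codon of mt-Atp6 and the stop codon of mt-Atp8. A nuclear copy of a piece of mitochondrial DNA lies on the minus strand of chromosome 1, between 24612407 and 24615565, where 5 members have an annotated unprocessed pseudogene that is listed in the tables as a gene of its own. Over all bases of the pseudogene, mt-Atp6 (Gm10925, 678 bases), mt-Co2 (Gm28661, 681 bases), mt-Co3 (Gm28437, 783 bases) and mt-Nd4l (Gm10222, 294 bases) had 0 mismatches. mt-Nd3 and Gm28438 differed at 1 of 345 bases, T3C counted from 1 at the first base of mt-Nd3, and the following lines show positions 1 to 23 of both with that base in capitals.
mt-Atp8 and mt-Atp6 overlap: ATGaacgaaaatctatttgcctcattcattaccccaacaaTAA
mt-Nd3: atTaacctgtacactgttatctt
Gm28438: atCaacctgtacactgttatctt

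On the deposited scale, with the copies kept apart, the largest changes with OGD among the members were those of mt-encoded mRNAs. In WT cultures 7 of 13 rose and 1 fell, and in KO cultures 7 rose and none fell, at an adjusted p under 0.05 (limma, Benjamini-Hochberg over all genes). Their median log2 fold change was 0.44 in WT and 0.54 in KO, against -0.03 and 0.00 over all genes tested. OGD moved a large part of the transcriptome, since 44.3% of all genes were called in WT and 40.9% in KO, where 21.6% and 21% of all genes rose and 22.8% and 19.9% fell. Over all 89 members tested, the 2 groups did not overlap for 9 in WT and 4 in KO, beside 26.9% and 25.8% of all genes. All of these changes are relative to the scale of the deposited values. When reads were scaled to plain library totals instead, the median over all genes moved to -0.29 in WT and -0.27 in KO, and 4 mt-encoded members rose and 1 fell in WT while 5 rose in KO. On those totals the nuclear member Ndufb3 changed by more than any mt-encoded member, at -1.14 in WT and -1.02 in KO. Batch 1 held 1 library of each group and batch 2 held 1 of each KO group and none of WT, so neither allows a test of its own. Within batches 3.1 to 3.3 (batch 3) 6 mt-encoded members rose and 1 fell in WT (4 libraries a group), and 2 rose and 1 fell in KO (3 libraries a group). These numbers of libraries are unequal, so the WT and KO counts of batch 3 are not like for like.

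Both mt-encoded subunits of the ATP synthase rose. mt-Atp6, part of its proton channel, was at 10.11, 10.002, 10.03, 10.35 and 9.999 log2 CPM in the N_WT libraries and at 11.21, 10.70, 11.11, 11.63 and 10.41 in OGD_WT. The N_KO libraries were at 9.77, 10.02, 10.05, 10.83 and 9.69, and the OGD_KO libraries were at 11.43, 11.44, 11.34, 11.15 and 11.38. By the count that keeps mt-Atp6 apart from its copy, every deprived library lay above every normoxic one in both genotypes. The log2 fold change was 0.91 ± 0.19 (SE, adjusted p = 0.000681) in WT and 1.28 ± 0.21 (adjusted p = 0.000117) in KO.

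mt-Atp8, a short membrane subunit of the same enzyme, was at 9.02, 8.95, 8.82, 8.68 and 9.16 in N_WT and at 9.91, 9.25, 9.89, 10.12 and 9.79 in OGD_WT. In N_KO it was at 8.82, 9.17, 9.11, 9.52 and 8.32, and in OGD_KO at 9.97, 9.88, 9.90, 9.31 and 11.01. The groups were apart in WT and overlapped in KO, where the fourth OGD_KO library lay below the fourth N_KO library. The rise was 0.87 ± 0.17 (adjusted p = 0.000299) in WT and 1.03 ± 0.26 (adjusted p = 0.0046) in KO. No listed pseudogene was found to share 50-base words with mt-Atp8, so no copy was added for it. The search covered annotated transcripts only. It would have missed an unlisted copy between the pseudogenes of mt-Co2 and mt-Atp6, the neighbours of mt-Atp8.

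All 3 mt-encoded subunits of complex IV were called in both genotypes. mt-Co1, the catalytic subunit, was at 12.87, 12.80, 12.71, 12.47 and 12.97 in N_WT and at 13.28, 12.87, 13.54, 13.73 and 13.63 in OGD_WT. The N_KO values were 12.82, 13.11, 12.74, 12.76 and 12.55, and the OGD_KO libraries were at 13.56, 12.88, 13.52, 13.45 and 14.33. In each genotype 1 deprived library, the second, lay among the normoxic ones. The log2 fold change was 0.64 ± 0.19 (adjusted p = 0.0101) in WT and 0.75 ± 0.27 (adjusted p = 0.0314) in KO. The KO call was lost without OGD_KO replicate 1 (adjusted p = 0.0606), 3 (0.0614) or 5 (0.0599) and without N_KO replicate 1 (0.0587), 3 (0.0697) or 5 (0.0645), with log2 fold changes of 0.56 to 0.76. With the replicate number as a block (adjusted p = 0.0816) or batch as a covariate (adjusted p = 0.0733) the KO call was lost as well. On plain library totals the value was 0.36 (adjusted p = 0.113) in WT and 0.46 (adjusted p = 0.142) in KO.

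mt-Co2, which takes electrons from cytochrome c, had the largest spread among normoxic WT libraries. It was at 7.84, 8.47, 7.40, 7.79 and 6.14 in N_WT and at 8.84, 8.22, 8.94, 8.37 and 9.34 in OGD_WT. The N_KO libraries were at 8.27, 8.97, 8.35, 8.31 and 8.0, and the OGD_KO libraries were at 9.0, 8.94, 9.17, 9.18 and 9.45. The groups overlapped in both genotypes, and the fifth N_WT library stood lowest. The log2 fold change was 1.21 ± 0.29 (adjusted p = 0.0020) in WT and 0.77 ± 0.18 (adjusted p = 0.0025) in KO. mt-Co3, the remaining mt-encoded complex IV subunit, was at 0.44 ± 0.16 (adjusted p = 0.0333) in WT and 0.52 ± 0.21 (adjusted p = 0.0499) in KO. Its call was lost in 11 of 22 alternative analyses in WT and in 16 of 22 in KO. Leaving out OGD_WT replicate 1, 2 or 3 or N_WT replicate 1, 3 or 4 gave 0.34 to 0.45 with an adjusted p of 0.0603 to 0.0811. Leaving out replicate 1, 2, 3 or 5 of OGD_KO or of N_KO gave 0.42 to 0.55 with an adjusted p of 0.0751 to 0.117, and with the replicate block the adjusted p was 0.116 in KO.

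Within complex I, whose mt-encoded subunits form the core of the membrane arm, members differed. mt-Nd4l was at 6.61, 5.25, 5.70, 6.31 and 5.41 in N_WT and at 6.89, 6.75, 7.10, 6.61 and 7.12 in OGD_WT. The N_KO libraries were at 5.13, 5.93, 6.08, 6.76 and 6.17 and the OGD_KO libraries at 6.90, 6.57, 6.97, 7.05 and 7.68. The WT groups lay next to each other without overlap, and the KO groups overlapped. It rose by 1.04 ± 0.21 (adjusted p = 0.000441) in WT and 1.02 ± 0.24 (adjusted p = 0.00233) in KO. mt-Nd6, the member read from the opposite strand, was at 7.73, 7.69, 7.58, 7.94 and 7.57 in N_WT and at 8.40, 7.73, 8.44, 8.68 and 8.48 in OGD_WT. In N_KO it was at 7.57, 7.43, 7.68, 8.21 and 7.65, and in OGD_KO at 8.49, 8.5, 8.47, 8.16 and 8.57. A single deprived library reached into the normoxic range in each genotype, and mt-Nd6 rose by 0.65 ± 0.17 (adjusted p = 0.00338) in WT and 0.73 ± 0.16 (adjusted p = 0.00165) in KO. Scaled to plain totals the WT value was 0.37 (adjusted p = 0.0667).

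The other complex I subunits and cytochrome b were not called in either genotype, apart from mt-Nd3 in WT. mt-Nd4 stood at 0.43 (adjusted p = 0.0538) in WT and 0.54 (adjusted p = 0.0862) in KO. With the replicate number as a block the WT value was called (adjusted p = 0.0217). It also passed the threshold without OGD_WT replicate 2 (0.50, adjusted p = 0.0253), N_WT replicate 4 (0.54, 0.0134), OGD_KO replicate 4 (0.65, 0.0499) or N_KO replicate 4 (0.71, 0.0209). mt-Nd5 stood at 0.26 and 0.41, mt-Cytb (complex III) at 0.31 and 0.41, mt-Nd2 at 0.16 and 0.35, and mt-Nd1 at -0.04 and 0.14 in WT and KO. Without N_WT replicate 4 mt-Cytb was called at 0.45 (adjusted p = 0.0369), and without N_KO replicate 4 mt-Nd2 (0.54, adjusted p = 0.0473) and mt-Nd5 (0.61, adjusted p = 0.0498) were.

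**Figure D1:**
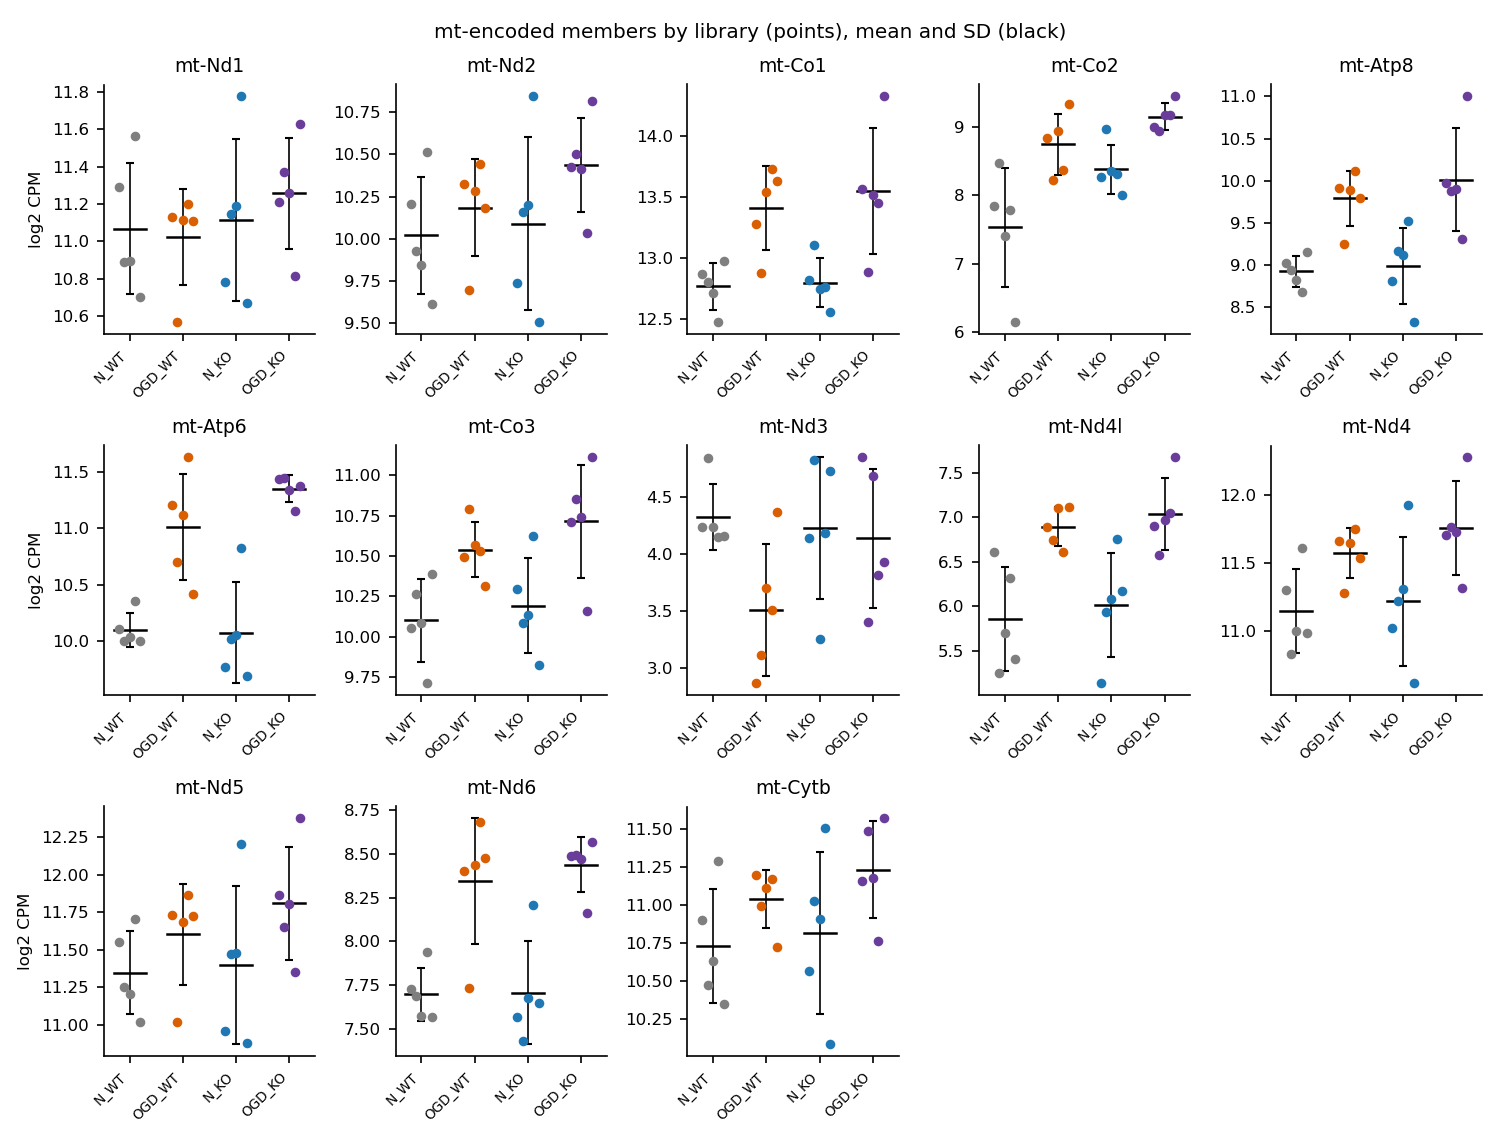
Levels of the 13 mt-encoded members in the 20 libraries (y axes, log2 CPM on the deposited scale, each panel with its own range). Points are libraries, ordered by replicate number, and black marks are the mean and SD of 5. In mt-Atp6, counted apart from its copy, all OGD libraries lie above all N libraries of their genotype. In mt-Nd1, mt-Nd2, mt-Nd5 and mt-Cytb the 4 groups overlap.

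mt-Nd3, a small complex I subunit, was the only mt-encoded member that fell, and only by the count that keeps it apart from its copy. It was at 4.24, 4.84, 4.24, 4.15 and 4.16 in N_WT and at 2.87, 3.12, 3.70, 3.51 and 4.37 in OGD_WT, a log2 fold change of -0.81 ± 0.22 (adjusted p = 0.0045). The N_KO values were 4.14, 4.82, 3.26, 4.18 and 4.72, and the OGD_KO libraries were at 4.85, 3.41, 4.68, 3.82 and 3.93, a difference of -0.09 (adjusted p = 0.823). These groups overlapped in both genotypes. Per library, between 74.3% and 97.5% of the reads of the pair stood on Gm28438 rather than on mt-Nd3. With both summed, the difference was -0.22 (adjusted p = 0.611) in WT and 0.16 (adjusted p = 0.713) in KO, so the call was lost. Within batch 3, without copies, the KO difference was -0.86 (adjusted p = 0.0347).

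The copies held a large part of the reads of the other 4 pairs as well. The copy's share per library was 46.0% to 74.6% for mt-Atp6, 48.9% to 91.7% for mt-Co2, 56.0% to 83.7% for mt-Nd4l and 18.6% to 55.8% for mt-Co3. With copies added, mt-Atp6 stood at 0.76 (adjusted p = 0.00566) in WT and 0.89 (adjusted p = 0.0178) in KO, mt-Co2 at 0.58 (adjusted p = 0.00267) and 0.63 (adjusted p = 0.0158), and mt-Nd4l at 0.61 (adjusted p = 0.0027) and 0.71 (adjusted p = 0.00219). These 3 were called either way, at smaller sizes. With copies added, the mt-Atp6 groups overlapped in both genotypes and those of mt-Co2 in KO. The groups of mt-Co2 in WT and of mt-Nd4l in both genotypes did not overlap. mt-Co3 was at 0.29 (adjusted p = 0.117) and 0.39 (adjusted p = 0.174) and was no longer called. With copies added, 6 mt-encoded members rose and none fell in each genotype. mt-Co1 and mt-Nd4 also share 51.1% and 62.2% of their 50-base words with other genes, but the listed copies held at most 0.0553% and 0.143% of their reads in any library. The chromosome 1 copies are too alike for the tables to show which locus a read came from.

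**Figure D2:**
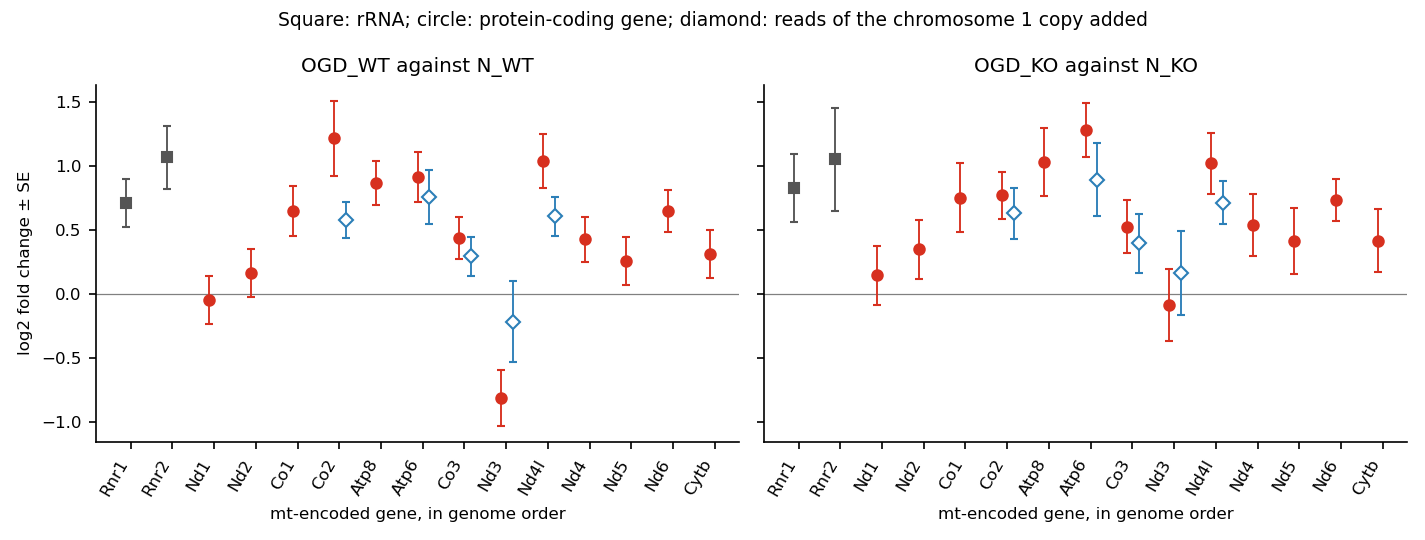
Log2 fold change of OGD against N for mt-encoded genes in genome order, WT left and KO right. Circles are the 13 protein-coding members, squares the 2 rRNAs, open diamonds the members with the reads of their chromosome 1 copy added, and bars the SE. mt-Nd3 lies at -0.81 in WT and moves to -0.22 with its copy, and the values are relative to the deposited scale, on which the median gene lies near 0.

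Along the genome the 2 rRNAs also rose. mt-Rnr1 changed by 0.71 (adjusted p = 0.00403) in WT and 0.83 (adjusted p = 0.0178) in KO, and mt-Rnr2, the large rRNA, by 1.07 (adjusted p = 0.00135) and 1.05 (adjusted p = 0.0447). mt-Rnr2 alone took 12.0% ± 1.5 (SD, n = 5) of all reads in N_WT and 20.9% ± 4.2 in OGD_WT, and 13.3% ± 2.3 in N_KO and 22.6% ± 5.5 in OGD_KO. The groups were apart in KO and overlapped in WT, where the second OGD_WT library was at 13.8%.

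As a share of all reads the 13 mt-encoded members together took 2.22% ± 0.17 in N_WT, 2.55% ± 0.34 in OGD_WT, 2.36% ± 0.52 in N_KO and 2.92% ± 0.51 in OGD_KO, and the groups overlapped in both genotypes. The nuclear members took 0.373% ± 0.043 in N_WT and 0.329% ± 0.038 in OGD_WT, and 0.367% ± 0.050 in N_KO and 0.319% ± 0.037 in OGD_KO, again with overlap. Reads on the chromosome 1 copies were not counted for the mt-encoded members, either in their share above or in the ratio below. A further total left out the reads of the 13 mt-encoded members and of the mt-encoded rRNAs and tRNAs, but kept those of the copies. Of that total the nuclear share was 0.439% in N_WT and 0.437% in OGD_WT, and 0.442% in N_KO and 0.438% in OGD_KO. The ratio of mt-encoded to nuclear reads was 6.01 ± 0.63 in N_WT, 7.92 ± 1.74 in OGD_WT, 6.39 ± 0.94 in N_KO and 9.40 ± 2.84 in OGD_KO, with overlapping groups. Per length, the median nuclear member had 19.7 RPKM (reads per kilobase of exon, scaled to library size) in N_WT and the median mt-encoded member 1598. Exon length was that of all annotated exons of a gene, merged over its transcripts, and the copies' reads were left out. Both limit the comparison of these values.

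**Figure D3:**
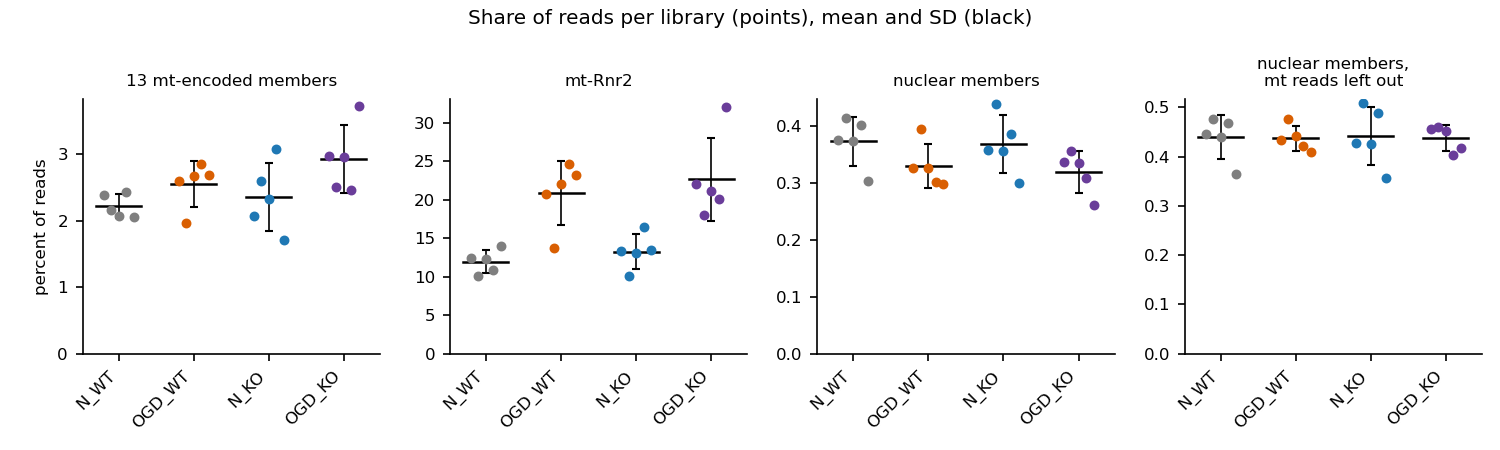
Percent of all recovered reads per library on the 13 mt-encoded members, on mt-Rnr2, on the nuclear members, and on the nuclear members after mt reads were left out. The first panel does not count reads on the chromosome 1 copies. In the fourth the reads left out include mt-encoded rRNA and tRNA but not the copies. Points are libraries and black marks the mean and SD of 5. The groups of the nuclear share overlap in the third panel (mean 0.329% in OGD_WT, 0.373% in N_WT) and in the fourth (0.437% and 0.439%).

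Nuclear members moved little. In WT 5 of 76 tested rose and 4 fell with OGD, and in KO 5 rose and 1 fell (limma, adjusted p under 0.05, beside 44.3% and 40.9% of all genes). Their median log2 fold change was 0.05 in WT and 0.08 in KO. The median size of the change, whatever its sign, was 0.155 in WT and 0.200 in KO, against 0.362 and 0.352 over the 11866 and 11734 genes within the same range of expression level, of which 44.9% and 41.6% were called. The direction of the nuclear calls depended on the scale. With plain library totals 1 rose and 11 fell in WT and 0 rose and 14 fell in KO, and with library totals computed without mt-encoded genes 3 rose and 6 fell in WT and 3 rose and 5 fell in KO, where the median over all genes was -0.13 and -0.09. Within batch 3 alone 3 rose and 2 fell in WT, and 0 rose and 1 fell in KO.

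**Figure D4:**
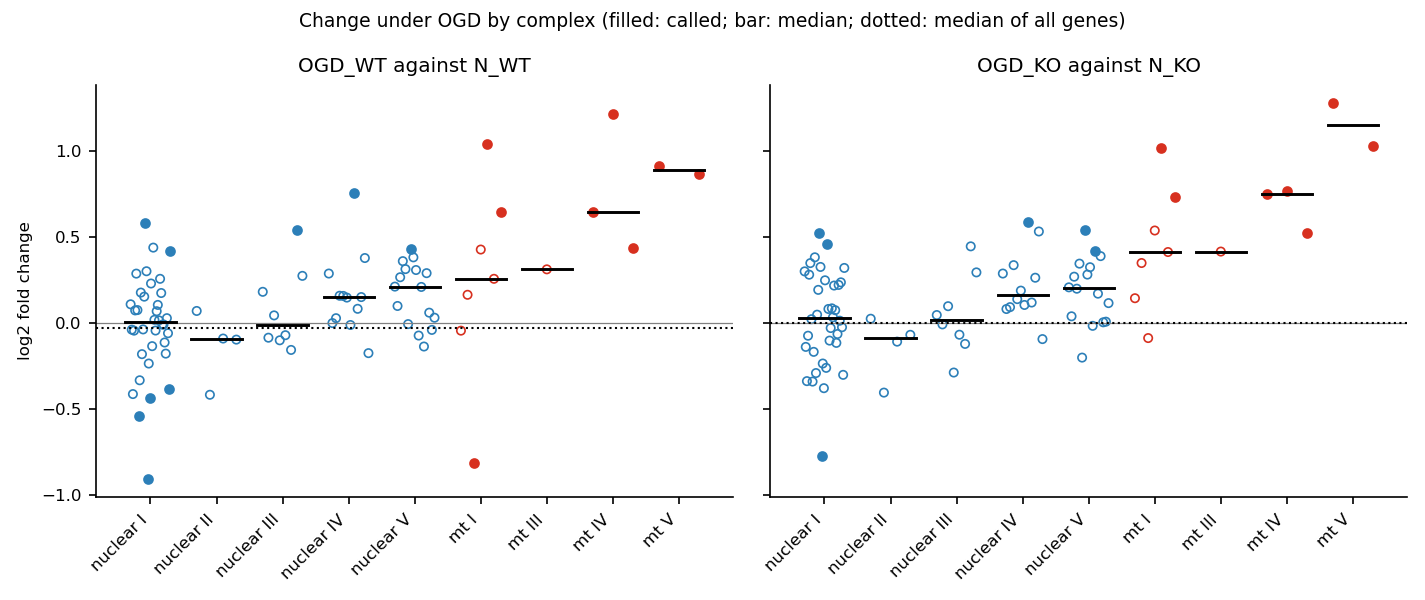
Log2 fold change of OGD against N for each member by complex and genome, WT left and KO right. Filled points passed the test, horizontal bars are medians, and the dotted line is the median of all genes tested. Nuclear complex I is centred near 0 (median 0.00 in WT) and the 2 mt-encoded members of complex V have the highest median (0.89 in WT, 1.15 in KO), on the deposited scale, although mt-Co2 and mt-Nd4l lie above both of them in WT; with plain library totals the nuclear calls turn to mostly lower.

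The 4 nuclear members called in both genotypes were Cox7a2l, Ndufb11, Atp5g2 and Ndufb3. Promoter sequence from RefSeq (GRCm38.p6) is shown for the first because it had the largest rise of any nuclear member in both genotypes, and a 30-base stretch for Atp5g2 because it holds the palindrome bound by NRF1, a nuclear activator of respiratory genes, in capitals. The Cox7a2l stretch is the 250 bases before the RefSeq start, chr17:83514334-83514583 on the minus strand, within the annotated gene span but in no annotated exon. The Atp5g2 stretch is chr15:102671070-102671099 on the minus strand.
Cox7a2l: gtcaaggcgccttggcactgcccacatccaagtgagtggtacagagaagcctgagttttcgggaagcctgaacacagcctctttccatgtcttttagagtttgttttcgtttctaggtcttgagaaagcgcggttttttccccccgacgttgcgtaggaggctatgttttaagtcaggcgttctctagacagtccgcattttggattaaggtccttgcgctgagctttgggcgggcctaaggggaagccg
Atp5g2: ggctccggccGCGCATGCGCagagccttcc

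In 69 windows of 64 nuclear members (250 bases before to 50 after the start, both strands) the NRF1 palindrome occurred in 7.25%, against 1.97% of 13374 windows of all tested genes. The shorter NRF1 word GCATGCGC, which lies within the palindrome, occurred in 14.5% against 5.11%, the ETS core CCGGAAG, as bound by GABP, in 24.6% against 16.7%, and the ERR half-site AAGGTCA in 11.6% against 2.89%. The YY1 motif occurred in 7.25% against 1.91%, and the hypoxia core ACGTG in 23.2% against 25.2%. None of these words occurs in the printed Cox7a2l stretch. A match is a description of the sequence and no evidence of binding.

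Cox7a2l, which encodes a complex IV-related protein (chr17:83501918-83517330), was at 4.90, 4.92, 4.90, 4.89 and 4.78 log2 CPM in N_WT and at 5.52, 5.94, 5.65, 5.39 and 5.67 in OGD_WT. The N_KO libraries were at 4.93, 4.62, 4.94, 5.12 and 5.00, and the OGD_KO libraries were at 5.61, 5.35, 5.46, 5.81 and 5.32. The groups did not overlap in either genotype. It rose by 0.76 ± 0.14 (SE, adjusted p = 0.000168) in WT and 0.59 ± 0.15 (adjusted p = 0.0034) in KO. On plain library totals the KO value was 0.30 (adjusted p = 0.131), and within batch 3 alone it was 0.58 (adjusted p = 0.195).

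Its relative Cox7a2 and the other complex IV subunits given here did not pass the test. The ubiquitous form Cox7a2 stood at -0.01 in WT and 0.10 in KO, Cox4i1 at 0.29 and 0.29, Cox6a1 at 0.16 and 0.34, Cox6b1 at 0.16 and 0.14, and Cox8a at 0.38 and 0.53. Without OGD_WT replicate 5 Cox8a was called at 0.56 (adjusted p = 0.00856) and without N_KO replicate 4 at 0.76 (adjusted p = 0.0163). Without N_KO replicate 2 Cox4i1 was called at 0.39 (adjusted p = 0.0356), and without N_KO replicate 4 Cox6a1 at 0.47 (adjusted p = 0.0166). Ndufa4, a complex IV subunit despite its name, was at -0.17 and -0.09. The alternative isoforms Cox4i2, Cox6a2, Cox7a1, Cox8b and Ndufa4l2 are not listed in the tables used here. Over the 12 tested nuclear members of complex IV the median was 0.15 in WT and 0.16 in KO.

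Within nuclear complex I, 2 of 36 rose and 4 fell in WT and 2 rose and 1 fell in KO, with medians of 0.00 and 0.03. That is 16.7% and 8.33% called, beside 44.3% and 40.9% of all genes. Ndufb3, an accessory subunit of the membrane arm (chr1:58586384-58595964), had the largest fall of any nuclear member. It was at 2.01, 1.91, 1.85, 2.57 and 1.94 in N_WT and at 0.98, 1.31, 1.39, 1.05 and 1.03 in OGD_WT. In N_KO it was at 2.08, 1.97, 2.08, 2.64 and 1.70, and in OGD_KO at 1.59, 1.38, 1.3, 1.06 and 1.29. Every deprived library was below every normoxic one in both genotypes, at 12 to 59 reads per library. The change was -0.90 ± 0.18 (adjusted p = 0.000413) in WT and -0.77 ± 0.18 (adjusted p = 0.00264) in KO, and it kept its direction and its call in all 22 alternatives in each genotype.

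Ndufb11, another membrane arm subunit, encoded on the X chromosome (chrX:20615326-20617619), was at 4.06, 4.01, 3.85, 3.82 and 3.57 in N_WT and at 4.20, 4.71, 4.47, 4.14 and 4.67 in OGD_WT. The N_KO values were 3.8, 3.86, 3.57, 3.77 and 3.45, and the OGD_KO libraries were at 4.16, 4.43, 4.34, 3.63 and 4.51. The groups were apart in WT, and the fourth OGD_KO library lay within the N_KO range. It rose by 0.58 ± 0.16 (adjusted p = 0.00474) in WT and 0.52 ± 0.17 (adjusted p = 0.0182) in KO. Scaled to plain totals these values were 0.31 (adjusted p = 0.124) and 0.24 (adjusted p = 0.239).

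The remaining complex I calls were each made in 1 genotype and were picked out after their values were seen. In WT the accessory subunit Ndufv3 rose by 0.42 ± 0.14 (adjusted p = 0.0203). Ndufa5, an accessory subunit of the peripheral arm, changed by -0.54 ± 0.15 (adjusted p = 0.00727), and Ndufv2, a core iron-sulfur subunit of the NADH-oxidising module, by -0.38 ± 0.15 (adjusted p = 0.0445, or 0.0748 with the replicate block). Ndufb4c changed by -0.44 ± 0.16 (adjusted p = 0.0348), but it is annotated as a processed pseudogene and shares 100% of its 50-base words with Ndufb4, so its reads are uncertain. In KO Ndufb7, a membrane arm subunit, rose by 0.46 ± 0.18 (adjusted p = 0.0491, or 0.0907 with the replicate block). No test of the difference between genotypes was passed for any of these. Of the 7 nuclear core subunits only Ndufv2 was called, in WT.

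Complex II, which oxidises succinate and is shared with the tricarboxylic acid (TCA) cycle, had no called member. Sdhb, its iron-sulfur subunit, was at 5.35, 5.51, 5.40, 5.83 and 4.78 in N_WT and at 4.89, 4.46, 4.99, 5.45 and 5.00 in OGD_WT. The N_KO libraries were at 5.44, 5.66, 5.29, 5.77 and 4.63, and the OGD_KO libraries were at 5.00, 4.68, 4.98, 4.84 and 5.27. The groups overlapped, and the fifth library was the lowest in both normoxic groups. The difference was -0.42 (adjusted p = 0.0775) in WT and -0.40 (adjusted p = 0.0935) in KO. It was called without N_WT replicate 5 (-0.57, adjusted p = 0.0113), OGD_WT replicate 4 (-0.54, 0.028), N_KO replicate 5 (-0.59, 0.00663) or OGD_KO replicate 5 (-0.48, 0.0386). With plain library totals it was also called, at -0.69 in both genotypes (adjusted p = 0.00277 and 0.00565). Sdha, the flavoprotein, stood at 0.07 and 0.02, and the membrane anchors Sdhc and Sdhd at -0.09 and -0.10 in WT and -0.11 and -0.07 in KO.

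In complex III, Uqcrh, the hinge protein between cytochrome c1 and cytochrome c, was the sole call. It was at 4.21, 4.02, 4.17, 4.17 and 4.33 in N_WT and at 4.87, 4.5, 4.69, 4.87 and 4.66 in OGD_WT, with no overlap. The rise was 0.54 ± 0.14 (adjusted p = 0.00327). On plain library totals it was 0.26 (adjusted p = 0.128). In KO it stood at 0.45 (adjusted p = 0.0663), or 0.62 (adjusted p = 0.0071) without OGD_KO replicate 4. The Rieske iron-sulfur protein Uqcrfs1 was at -0.16 in WT and -0.12 in KO, and the core protein Uqcrc1 at -0.10 and -0.29. Without N_WT replicate 5 Uqcrc1 was called at -0.38 (adjusted p = 0.0452). The median of the 8 nuclear members was -0.01 in WT and 0.02 in KO.

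The nuclear members of complex V had medians of 0.21 (WT) and 0.20 (KO), against -0.03 and 0.00 over all genes. Of the 16, 1 rose in WT and 2 in KO (6.25% and 12.5%), beside 21.6% and 21% of all genes. The 3 genes for the c subunit, which forms the rotor ring, encode the same mature protein. Of these Atp5g2 (chr15:102662864-102672352) was at 3.0, 2.89, 2.81, 2.76 and 2.72 in N_WT and at 3.16, 3.65, 3.36, 2.94 and 3.24 in OGD_WT. In N_KO it was at 2.73, 3.18, 2.62, 2.52 and 2.79, and in OGD_KO at 3.33, 3.67, 3.42, 2.97 and 3.15, and the groups overlapped in both genotypes. It rose by 0.43 ± 0.16 (adjusted p = 0.0290) in WT and 0.54 ± 0.17 (adjusted p = 0.0149) in KO.

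The WT call of Atp5g2 was lost without OGD_WT replicate 2 (0.34, adjusted p = 0.0674) or 3 (0.41, 0.0784) and without N_WT replicate 3 (0.42, 0.069) or 5 (0.40, 0.052). Scaled to plain totals it was 0.17 (adjusted p = 0.414) in WT and 0.26 (adjusted p = 0.229) in KO. Its relatives Atp5g1 and Atp5g3 were at -0.01 and 0.38 in WT and at -0.20 and 0.28 in KO, and were not called. The 5 subunits of the catalytic head had medians of 0.27 (WT) and 0.21 (KO), with none called. Atp5j2, a subunit of the membrane part picked out after its value was seen, rose by 0.42 ± 0.15 (adjusted p = 0.0359, or 0.0582 with the replicate block) in KO. Atp5k, another membrane subunit, was at -0.14 in WT and 0.17 in KO. Atpif1, the inhibitor of the ATP synthase and no member by its symbol, was at -0.07 (adjusted p = 0.749) and -0.02 (adjusted p = 0.923).

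**Figure D5:**
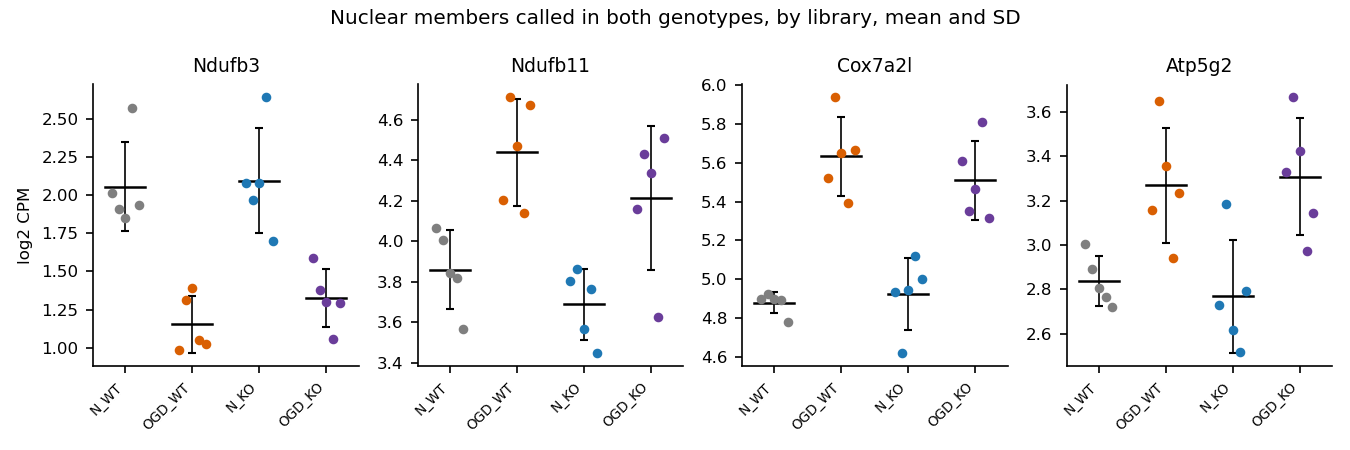
Levels of the 4 nuclear members called in both genotypes (y axes, log2 CPM on the deposited scale), by library, with the mean and SD of 5. Ndufb3 is lower in every OGD library than in any N library of its genotype and Cox7a2l is higher, while Atp5g2 overlaps; with plain library totals the rises of Ndufb11 and Atp5g2 lose their call in both genotypes and that of Cox7a2l in KO.

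Genotype made no difference that passed the test. Between N_KO and N_WT 0 of 89 members were called (limma), beside 0.0353% of all genes, and 1 had an unadjusted p under 0.05, beside 1.81%. Between OGD_KO and OGD_WT 0 of 90 were called beside 0.0282%, and 1 had an unadjusted p under 0.05, beside 1.78%. These were mt-Co2 in normoxia, 0.89 ± 0.29 higher in KO (adjusted p = 0.999938), and mt-Nd3 under OGD, 0.64 ± 0.29 higher (adjusted p = 0.999992). Both are genes with a near-identical copy, and with copies added the differences were 0.17 ± 0.16 and 0.43 ± 0.18 (SE). The mt-encoded members had a median difference of 0.10 in normoxia and of 0.22 under OGD, and their groups overlapped.

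The interaction of genotype and treatment, which asks whether the response to OGD differed between KO and WT, called 0 of 89 members and 0% of 13688 genes (limma, smallest adjusted p = 0.999967, and no member at an unadjusted p under 0.05). The largest estimate among members was that of mt-Nd3, at 0.73 ± 0.43 (SE).

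The genes that build, feed and regulate the chain were described by list. Their values are those of the deposited scale, and their calls were not checked under other scalings or any other alternative. Of 51 assembly factors, 3 rose and 20 fell in WT (median -0.25) and 2 rose and 16 fell in KO (median -0.18). That is 45.1% and 35.3% called, beside 44.3% and 40.9% of all genes, of which 22.8% and 19.9% fell. Lyrm7, an assembly factor of complex III, changed by -1.31 ± 0.19 (adjusted p = 1.45e-05) in WT and -1.20 ± 0.16 (adjusted p = 1.08e-05) in KO. Sco2, a copper chaperone of complex IV, rose by 0.83 (adjusted p = 0.00056) in WT and 0.51 (adjusted p = 0.0073) in KO, and Cox20, a chaperone of the mt-Co2 protein, by 0.44 (adjusted p = 0.0244) and 0.60 (adjusted p = 0.00499).

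Of 20 measured genes for electron carriers and ubiquinone synthesis, 3 rose and 6 fell in WT (median -0.21) and 4 rose and 4 fell in KO (median -0.24). These shares, 45% and 40% called, are near the 44.3% and 40.9% of all genes. Cycs, cytochrome c, changed by -0.53 (adjusted p = 0.0127) and -0.49 (adjusted p = 0.0121). The ubiquinone genes went both ways, with Coq3 at -1.32 and -1.20 and Coq6 at 0.74 and 0.79. Of 13 TCA cycle genes, 1 rose and 4 fell in each genotype (medians -0.10 and -0.15), which is 38.5% called, beside 44.3% and 40.9% of all genes. Fh1, fumarase, changed by -0.70 and -0.75, and Suclg2, a succinyl-CoA ligase subunit, by 0.85 and 1.04. Of 15 measured outer membrane and import genes, 1 rose and 3 fell in WT and 2 rose and 2 fell in KO (medians 0.04 and -0.02), or 26.7% called in each genotype beside the same shares of all genes. Timm44 was at 0.52 and 0.59 and Tomm70a at -0.66 and -0.74.

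The machinery of mitochondrial transcription, RNA handling and DNA replication had 6 of 29 genes higher and 5 lower in WT (median 0.07) and 5 higher and 1 lower in KO (median 0.06). That is 37.9% and 20.7% called, beside 44.3% and 40.9% of all genes. Trmt10c, a subunit of the enzyme that cuts tRNAs out of the long transcripts, rose by 1.05 ± 0.15 (adjusted p = 9.01e-06) in WT and 0.98 ± 0.16 (adjusted p = 0.000114) in KO. Tfam, which packages mitochondrial DNA and starts its transcription, changed by -0.47 (adjusted p = 0.0114) in WT and stood at -0.36 (adjusted p = 0.0785) in KO. The elongation factor Tefm changed by -0.68 (adjusted p = 0.00673) in WT and stood at -0.70 (adjusted p = 0.0574) in KO, and Fastkd1 changed by -0.54 (adjusted p = 0.00506) and -0.42 (adjusted p = 0.03). The RNA polymerase Polrmt was at 0.25 (adjusted p = 0.242) and 0.33 (adjusted p = 0.128). Among the replication genes, Polg (0.72 and 0.77), Polg2 (0.70 and 0.69) and Twnk (0.45 and 0.47) rose in WT and KO. Ssbp1, at -0.06 and 0.06, was not called.

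Of 14 nuclear regulators of respiratory genes, 6 rose and 1 fell in WT (median 0.44) and 9 rose and 1 fell in KO (median 0.49), beside 21.6% and 21% of all genes that rose and 22.8% and 19.9% that fell. Nrf1 rose by 0.58 (adjusted p = 0.0048) and 0.48 (adjusted p = 0.00875), and Gabpb2, a subunit of GABP, by 0.86 (adjusted p = 0.000111) and 0.87 (adjusted p = 5.59e-05). Esrrg, an estrogen-related receptor, changed by -1.03 (adjusted p = 0.00155) in WT and -1.28 (adjusted p = 0.000142) in KO, and Esrrb stood at 0.52 (adjusted p = 0.059) in WT and changed by 1.12 (adjusted p = 0.00037) in KO. The level of Esrrb was low, with a mean of 0.02 log2 CPM in N_KO and 1.14 in OGD_KO, so its value is limited by depth. The coactivator Ppargc1a was at -0.09 and -0.14 and was not called. Of 13 measured hypoxia-linked genes, 5 rose and none fell in WT (median 0.36) and 4 rose and 1 fell in KO (median 0.35), which is 38.5% called in each, beside 44.3% and 40.9% of all genes. Bnip3, a mitophagy receptor, rose by 2.12 (adjusted p = 3.44e-05) and 1.76 (adjusted p = 0.000471), and Higd2a, a supercomplex factor, stood at -0.20 (adjusted p = 0.309) in WT and changed by -0.38 (adjusted p = 0.0392) in KO. Lonp1, the matrix protease, was at 0.37 and 0.47 and Higd1a at 0.43 and 0.44, and neither was called.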

How the data were processed

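The authors deposited 1 table of log2 CPM per comparison, per the file headers, for 4 groups of 5 libraries. The build is mm10, per the submitters' processing notes. The aligner, counting, gene filter and scaling are not given in the sources used here. In each gene and group the lowest and highest values had been drawn in as clipping at percentiles 10 and 90 would (weights 0.6 and 0.4). This was undone, after which at least 99.9% of values up to 500 reads were whole within 0.05 reads, against 45.5% to 92.8% of those deposited. Each comparison was fitted over all genes of its table with limma 3.58.1 in R 4.3.3 (lmFit, eBayes with trend, no block), two-sided, and a gene was called where its Benjamini-Hochberg adjusted p was under 0.05. The interaction used recovered reads of 13688 genes (prior count 2) in all 20 libraries with culture as a random block (statmod 1.5.0). The N and OGD libraries of a number share their numbered genotype label and batch, per the labels, so the replicate block is given where it changes a call. Their deviations correlated at -0.64 to 0.06 in WT and -0.79 to -0.07 in KO, lowest for replicate 3 in both. In each genotype 0 of 5 correlated best with their own number. An adjustment of the deposited values for batch, if made, would lower these correlations, so they cannot decide whether the libraries are paired. Code was tested on simulated data. Standard errors and p-values measure the spread between these libraries in the values so recovered. As deposited, 78.0% to 80.2% of such values were whole in replicate 1 and 85.5% to 92.8% in replicate 3. The other replicates had 45.5% to 57.0%, so replicates 1 and 3 were less often the lowest or highest of their group. Whether the deposited values had been adjusted for batch is not given and was not tested. If they had, the spread would be understated and the p-values too small. Python 3.11.15, pandas 2.3.3, numpy 2.4.6 and matplotlib 3.10.9 were used.

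Members, lists and tests were chosen with earlier results of these data known. Genes named by rule were the mt-encoded members, per complex the nuclear member with the largest rise and largest fall in each OGD comparison, isoform sets, complex II, Atpif1, and the extremes and set genes of each list. Annotation was GENCODE M21 (75 of 77 nuclear members matched) and RefSeq GRCm38.p6. Of the 75, 57 shared under 10% of their 50-base words with other genes. Alternatives were the clipped values, other scalings, prior counts, a level filter, joint, block and batch fits, batch 3 alone, and leaving out each library. Plain library totals and adding the copies' reads were chosen after seeing the data.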

Additional observations from a re-analysis of the deposited data

Results flagged for a closer look

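Among the 148 groups of 5 libraries examined for the named members and read shares, 14 had a library set apart from the other 4 by more than Dixon's limit of 0.71 of the group's range, where chance gives about 7.4. Lowest libraries among mt-encoded members were OGD_WT replicate 2 for mt-Nd1 (10.57 log2 CPM, others 11.11 to 11.20) and mt-Nd5 (11.02, others 11.68 to 11.87), and OGD_KO replicate 4 for mt-Nd6 (8.16, others 8.47 to 8.57). N_WT replicate 2 was highest for mt-Nd3 (4.84, others 4.15 to 4.24). OGD_WT replicate 2 also had the lowest share of reads on mt-encoded members (1.97%, others 2.60% to 2.85%), and OGD_KO replicate 5 the highest share on mt-Rnr2 (32.0%, others 18.0% to 22.0%).

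Among nuclear members, N_WT replicate 5 was lowest for Cox7a2l (4.78, others 4.89 to 4.92), Ndufa4 (2.66, others 3.55 to 3.81) and Uqcrc1 (5.00, others 6.20 to 6.66). OGD_WT replicate 5 was lowest for Cox8a (4.27, others 5.14 to 5.31) and OGD_KO replicate 5 for Cox4i1 (5.76, others 6.02 to 6.11). OGD_WT replicate 4 was lowest for Ndufa4 (2.73, others 3.37 to 3.57), and N_WT replicate 4 highest for Ndufb3 (2.57, others 1.85 to 2.01). OGD_KO replicate 2 was highest for Sdha (6.51, others 6.03 to 6.14).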

How the results depend on the processing

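Among the members named by rule, no value called in the fits given with the results changed sign under any alternative run. This was not checked for the called members picked out after their values were seen. With the clipped values as deposited, 31 members were called in WT and 34 in KO. Within batch 3 alone 12 were called in WT (4 libraries a group) and 4 in KO (3 libraries a group), the latter being mt-Atp6 (1.15), mt-Atp8 (1.06), Ndufb3 (-0.86) and mt-Nd3 (-0.86). Leaving out 1 library gave 12 to 20 calls in WT and 9 to 18 in KO. A joint fit of all libraries on total reads called 15 in each genotype, with 1 nuclear member higher and 9 lower in WT and 0 and 11 in KO. With rRNA left out of the denominator the mt-encoded share, again without the copies' reads, was 2.55% in N_WT and 3.31% in OGD_WT. It was 2.76% ± 0.65 in N_KO and 3.92% ± 1.02 in OGD_KO. The genotype comparisons and the interaction called 0 members under every alternative run.

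With the replicate number as a block, 17 members were called in WT, 9 in KO and 0 in the genotype comparisons and in the interaction with culture fixed. Beside the calls given with the results (mt-Nd4 and Ndufv2 in WT, and mt-Co1, mt-Co3, Ndufb7 and Atp5j2 in KO), the block changed no other call among the members. Members at low counts, such as Ndufb3 and Cox6b2, are limited by depth.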
